A study of Homo sapiens with 15 samples.

Results

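Retinal ganglion cells (RGCs) are the output neurons of the retina. Their fate is set up by the transcription factor ATOH7 and carried forward by POU4F2 and ISL1, and POU4F1 follows in most of the cells. Their long axons form the optic nerve and are filled with neurofilaments, and growing axons carry the growth-cone protein GAP43 and the microtubule regulator STMN2. Several of these genes are not restricted to RGCs: ISL1 also marks bipolar and some amacrine cells, and RBPMS, a widely used RGC marker, is also made in smooth muscle.

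The report is on 10 genes used as RGC markers, out of 19684 genes listed: POU4F1, POU4F2, ISL1, NEFL, NEFM, GAP43, STMN2, SNCG, RBPMS and ELAVL4. They were matched by symbol to 1 identifier each; the list applies no threshold to any value, though it was drawn up with earlier results of these data known. All libraries came from 1 human induced pluripotent stem cell line, BC1-GFP, which carries a GFP reporter and is labelled WT, and no group is labelled as treated with a further agent. There were 5 groups of 3 libraries: undifferentiated hiPSCs, the neural retina (NR) layers of retinal organoids (ROs) at day 70 (D70-RO) and day 150 (D150-RO) of differentiation, and induced Müller glial cells (iMGCs) grown from the NR layers of D150-ROs and taken on day 5 of passage 1 (P1) and of passage 5 (P5). The iMGCs were a dissociated culture expanded on Matrigel in medium with 10% serum, several ROs were pooled in each RO library, and every group rests on 1 line. The RO medium held 10% serum too, and N2 took the place of its B27 supplement between day 70 and day 150. The methods give 3 independent experiments per group, and the description of the data set gives fewer for hiPSCs and ROs, so the spread between libraries may in part be technical.

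Expected counts, which are estimates of the reads from each gene, summed to between 11349600 and 20398755 per library, and D70-RO replicate 2 had the lowest total. The labels were checked against marker lists of 10 genes each. Summed FPKM of the pluripotent cell markers was 3313.8 to 3491.69 in hiPSCs and at most 9.78 in any other library. Retinal progenitor markers summed to 1740.22 to 1913.57 in D70-ROs, and photoreceptor markers to 1388.21 to 1466.96 in D150-ROs. In the P1 iMGCs the Müller glia markers summed to 2482.55 to 2508.67, most of it from VIM, and RLBP1, CA2 and AQP4 of that list were at 0 in every P1 library. That sum lay within the D70-RO range of 1845.56 to 2744.34, so it does not set the iMGCs apart. Smooth-muscle type markers summed higher in the P1 iMGCs, at 3416.7 to 3735.31.

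The stretch of DNA just before the start is shown for POU4F1, POU4F2 and ISL1, the fate factors among the 10 genes. Their group means had the same order, and so did those of ELAVL4, which is not shown. RefSeq windows on GRCh38.p14 were available for 6 of the 10 genes. The 3 below end before the gene begins in both RefSeq and GENCODE 29, read 5′ to 3′ on the gene's strand, with E-boxes (CANNTG, the core read by basic helix-loop-helix factors such as ATOH7) and TATAA, in either direction, in capitals. They lie at chr13:78603561-78603802 on the minus strand, chr4:146638643-146638892 on the plus strand and chr5:51383198-51383390 on the plus strand.
POU4F1: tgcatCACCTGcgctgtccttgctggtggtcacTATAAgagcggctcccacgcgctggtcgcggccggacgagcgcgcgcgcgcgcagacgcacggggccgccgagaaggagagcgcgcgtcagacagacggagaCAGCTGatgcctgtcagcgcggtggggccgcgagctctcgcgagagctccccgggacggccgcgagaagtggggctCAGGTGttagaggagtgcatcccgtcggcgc
POU4F2: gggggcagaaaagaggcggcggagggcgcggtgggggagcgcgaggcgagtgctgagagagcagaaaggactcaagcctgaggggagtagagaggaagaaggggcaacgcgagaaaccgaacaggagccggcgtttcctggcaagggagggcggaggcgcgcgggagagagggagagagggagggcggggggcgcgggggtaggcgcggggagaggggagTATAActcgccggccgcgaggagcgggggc
ISL1: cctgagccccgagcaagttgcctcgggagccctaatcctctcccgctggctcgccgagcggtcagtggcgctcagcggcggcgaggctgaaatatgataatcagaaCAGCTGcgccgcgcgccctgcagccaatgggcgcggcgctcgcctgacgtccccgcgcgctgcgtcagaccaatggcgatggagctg

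POU4F1 held 3 E-boxes in its 242 bases, with first bases 245, 115 and 39 bases before the start site, and 9.75% of 35116 windows of that length held as many. The E-box at 115 had the form CAGCTG, as did the single E-box of ISL1, 144 bases before its start, and CAGCTG occurred in 13.6% of windows of 242 bases and in 10.9% of windows of 193 bases. POU4F2 held no E-box in 250 bases, where 61.8% of windows held at least 1. Its TATAA lay 30 bases before the start, and 18.9% of windows of that length held the motif. ISL1 also held CCAAT at 2 places, as did 6.51% of windows of its length. All 3 windows were rich in G and C, at 70.7%, 70.8% and 68.4%, against medians of 57.0% to 58.0% over all windows of the same lengths. These are matches of letters and do not show binding.

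Every RGC gene except RBPMS and the neurofilament pair was highest in the D70-ROs, and all 10 were lower in the D150-ROs than in the D70-ROs. By FPKM, which is scaled for transcript length, STMN2 stood highest in the D70-ROs at 396.6 ± 72.2 (SD, n = 3) and GAP43 next at 127.2 ± 27.5, and neither overlapped another member. POU4F2 at 22.1 ± 4.92, ISL1 at 20.8 ± 6.15, NEFM at 15.3 ± 0.536, NEFL at 13.2 ± 2.21 and SNCG at 11.7 ± 2.28 followed, and neighbours in that order overlapped. RBPMS at 8.96 ± 1.13 overlapped SNCG, and ELAVL4 at 4.55 ± 2.38 overlapped POU4F1 at 3.38 ± 0.855. In the D150-ROs, STMN2 at 52.7 ± 8.51 and GAP43 at 31.1 ± 4.27 were still the highest and still did not overlap. Every other member was then under 4 FPKM, led by RBPMS at 2.90 ± 0.405 and NEFM at 2.27 ± 0.206.

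**Figure D1:**
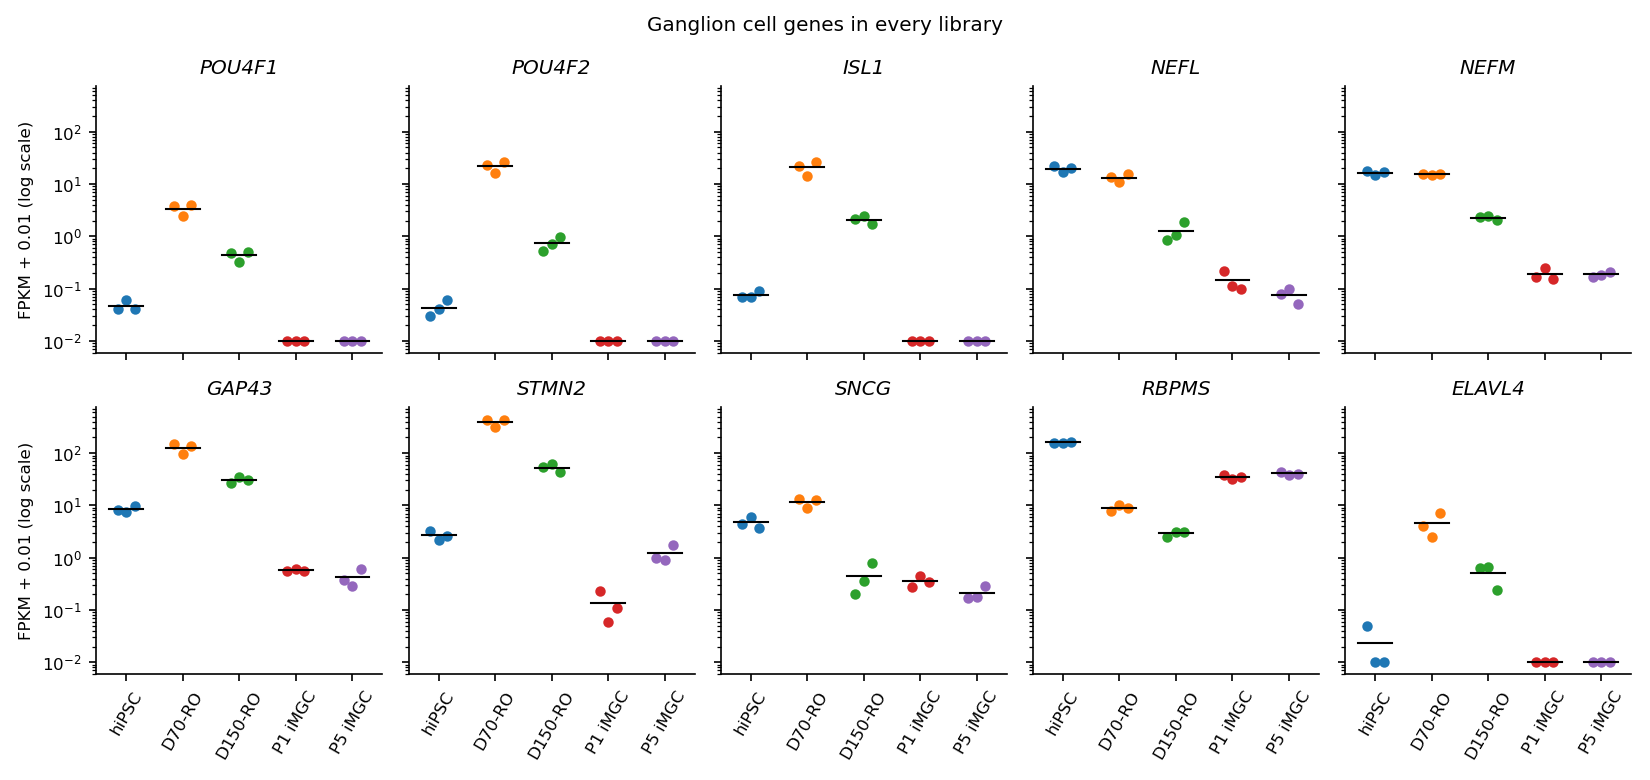
FPKM + 0.01 on a log axis for each RGC gene, with 1 point per library, 3 libraries per group, and a bar at the mean. Most genes peak in the D70-ROs, POU4F1, POU4F2, ISL1 and ELAVL4 sit at the floor in all 6 iMGC libraries, and RBPMS is highest in the hiPSCs at 156.06 to 166.5.

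Comparing the D70-ROs with the hiPSCs shows which of these genes came up as retina formed. Of the 10 genes, all passed the filter, 7 were called higher and 1 lower (adjusted p under 0.05 by edgeR's quasi-likelihood test and at least 2-fold), while 22.5% of the 12954 genes tested were called higher and 21.1% lower. By the plain criterion that all libraries of one group lie above all of the other, 7 genes were higher and 2 lower, where 40.2% and 35.2% of the genes tested were. The median log2 fold change over the 10 genes was 5.05, beside 0.02 over all genes tested. The fate factors moved most, with STMN2 and ELAVL4. This order depends on the setting: over the alternatives the lowest log2 values were 2.06 for POU4F1 and 2.37 for ELAVL4, against 3.68 for GAP43. POU4F1, POU4F2, ISL1 and ELAVL4 were under 1 FPKM in every hiPSC library and passed the filter only through the D70-ROs. The filter thus largely fixed their direction. Without it 7 of the 10 genes were called higher and 1 lower, where 21.1% of 17465 genes were called higher and 20.6% lower.

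The POU-domain factor POU4F1 (BRN3A; chr13:78598362-78603560 in GENCODE 29, minus strand) was at 0.03, 0.05 and 0.03 FPKM in the hiPSCs and at 3.8, 2.4 and 3.95 in the D70-ROs. POU4F2 (BRN3B; chr4:146638893-146642474) was at 0.02, 0.03 and 0.05 in the hiPSCs and at 23.58, 16.56 and 26.03 in the D70-ROs. ISL1 (chr5:51383391-51394738), a LIM-homeodomain factor, was at 0.06, 0.06 and 0.08 against 22.5, 14.01 and 25.97. In none of the 3 did the groups overlap, and the hiPSC values rest on only 6 to 10 counts per gene. The log2 fold changes were 6.32 ± 0.329 (SE) for POU4F1, 9.19 ± 0.308 for POU4F2 and 8.05 ± 0.329 for ISL1, with adjusted p of 2.37e-08, 1.23e-09 and 4.47e-09. Of their closest relatives, POU4F3 stayed at or under 0.06 FPKM in all hiPSC and RO libraries, and ISL2 rose from 0.11 to 0.21 FPKM to 5.61 to 8.81, with a log2 fold change of 5.23.

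Among the axonal genes, STMN2 (chr8:79610814-79666175) was at 3.28, 2.19 and 2.56 FPKM in the hiPSCs and at 438.9, 313.27 and 437.76 in the D70-ROs. The difference was 144-fold (log2 7.17 ± 0.195, adjusted p = 4.34e-10). GAP43 (chr3:115623324-115721490) was at 8.17, 7.49 and 9.57 against 147.18, 95.86 and 138.47, a 13.7-fold rise (adjusted p = 8.43e-09). SNCG (chr10:86958618-86963260), gamma-synuclein, had the smallest rise of the 7. It was at 4.47, 5.97 and 3.72 in the hiPSCs and at 13.27, 9.08 and 12.74 in the D70-ROs, 2.26-fold higher (adjusted p = 0.000994). Tested for a change beyond 2-fold, SNCG was not called (adjusted p = 0.238). The groups did not overlap for any of these genes.

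The neurofilament subunits were already present in the hiPSCs and did not rise. NEFL (chr8:24950955-24957110, minus strand), the light subunit, was at 21.76, 16.81 and 20.13 FPKM in the hiPSCs and at 13.36, 10.88 and 15.29 in the D70-ROs. NEFM (chr8:24913012-24919098), the medium subunit, was at 17.74, 15.18 and 16.72 against 15.27, 14.78 and 15.85. NEFL was lower in every D70-RO and NEFM overlapped, and the log2 fold changes of -0.77 and -0.45 passed the adjusted p (0.00041 and 0.00393) but not the 2-fold limit. Other neuronal filament genes of the same family did rise: INA (alpha-internexin) from 10.25 to 12.47 up to 118.13 to 161.13 FPKM, and PRPH (peripherin) from 0.43 to 0.7 up to 68.17 to 99.41. NEFH, the heavy subunit, stayed low at 1.22 to 1.64 FPKM over the 6 libraries and was not called (log2 fold change -0.27, adjusted p = 0.258).

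The RNA-binding proteins moved in opposite directions. ELAVL4 (HuD; chr1:50048014-50203786), which stabilises neuronal mRNAs, was at 0.04, 0 and 0 FPKM in the hiPSCs and at 3.95, 2.52 and 7.17 in the D70-ROs. With 2 counts in all hiPSC libraries against 671, both of them in replicate 1, the 95% counting interval of the ratio ran from 101.1-fold to 3034-fold. RBPMS (chr8:30384479-30572261) was at 158.94, 156.06 and 166.5 FPKM in the hiPSCs and at 7.89, 10.15 and 8.85 in the D70-ROs. Its 16.7-fold fall was the only one called among the 10 genes (log2 -4.06 ± 0.117, adjusted p = 5.56e-10). Its relative RBPMS2 fell 12.6-fold, from 76.6 to 92.93 FPKM to 5.68 to 8.79.

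Beyond the 10 genes, 16 of 22 further RGC fate and subtype factors passed the filter, and 15 were called higher and 0 lower by edgeR. On these filtered genes DESeq2 and limma also called 15 higher and 0 lower. At an unadjusted p under 0.05 the edgeR counts were the same. Only 3 of the 22 factors were at 1 FPKM or more in every hiPSC library. Most others that passed did so only through the D70-ROs, so the filter largely fixed their direction. Without it 16 of the 22 were called higher and 0 lower, where 21.1% of 17465 genes were called higher and 20.6% lower. Of 30 further axon, cytoskeleton and projection neuron genes, 27 passed, 17 were called higher and 2 lower. The largest rises over both lists were those of STMN4, a stathmin (254-fold), PRPH (205-fold) and the helix-loop-helix factor EBF1 (166-fold), and the falls were those of the surface glycoprotein THY1 (25.7-fold) and RBPMS2. ATOH7 was 132-fold higher, at 62.56 to 78.88 FPKM in the D70-ROs, the migration protein DCX was 28.5-fold higher and the tubulin TUBB3 3.31-fold higher.

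**Figure D2:**
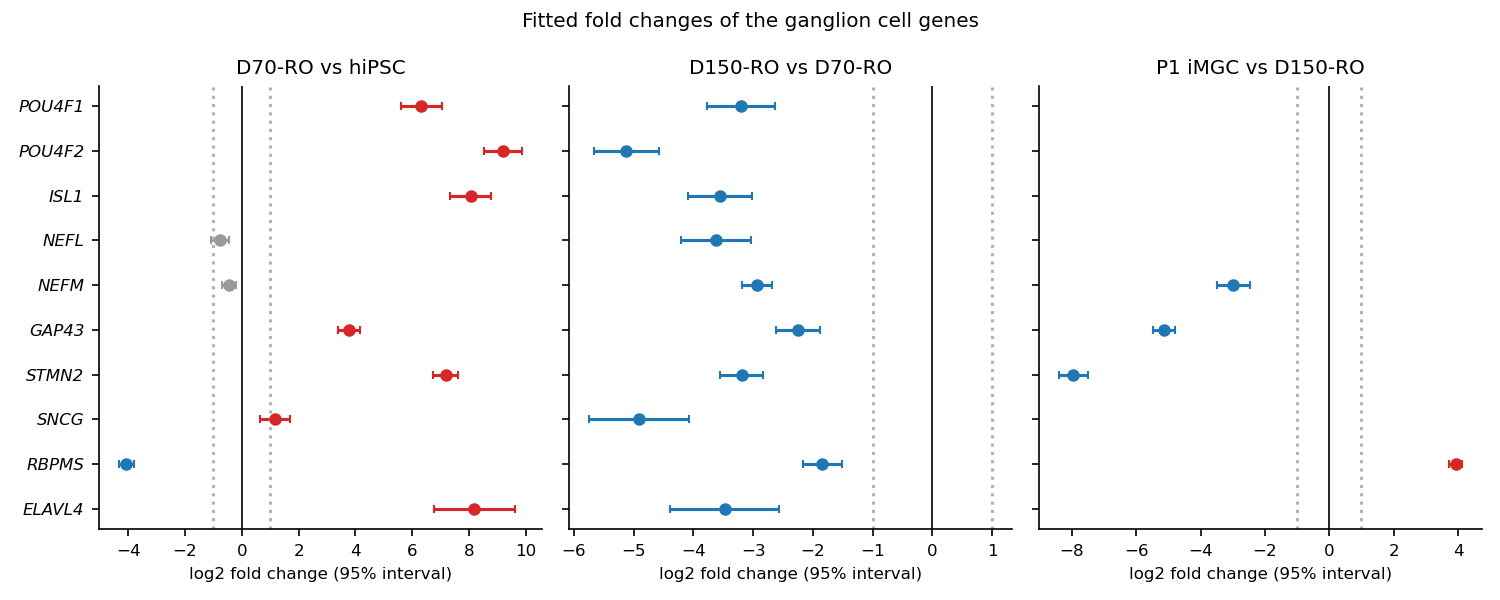
Log2 fold changes with 95% intervals from edgeR for the RGC genes that passed the filter and have counts in both groups, in 3 comparisons, each on its own axis; red is called higher, blue called lower, grey not called, and dotted lines mark 2-fold. All 10 genes lie left of the 2-fold line for D150-RO against D70-RO, and RBPMS alone lies to the right for P1 iMGC against D150-RO.

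The comparison of D150-ROs with D70-ROs, which shares the D70-RO libraries with the comparison above, asks what became of these genes by day 150. The age of the ROs and the change of medium supplement between these groups cannot be told apart. All 10 genes passed the filter and all 10 were called lower, while 16.7% of the 12855 genes tested were called lower and 16.6% higher. POU4F1, POU4F2, SNCG and ELAVL4 were under 1 FPKM in every D150-RO and passed only through the D70-ROs, so the filter largely fixed their direction. Without it all 10 were also called lower, where 15.3% of 17251 genes were called lower and 15.3% higher. For all 10 every D150-RO was below every D70-RO, as for 30.4% of the genes tested, and 46.8% lay wholly above. In a bulk sample, fewer RGCs and less RNA per RGC cannot be told apart. Fold changes here use TMM scaling, which sets the typical gene near no change. Scaled to total counts instead, all genes moved by 0.22 on the log2 scale and 63.9% of the calls were higher in place of 49.8%, with all 10 RGC genes still called lower. The levels kept at day 150 ran from 2.87% for POU4F2 to 28.0% for RBPMS, with a median of 9.93%, and the median log2 fold change was -3.34, beside -0.01 over all genes tested.

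The fate factors fell by unequal amounts. POU4F2 was at 0.51, 0.7 and 0.98 FPKM in the D150-ROs, 34.8-fold below the D70-ROs (log2 -5.12 ± 0.237, adjusted p = 4.18e-07). ISL1 was at 2.13, 2.39 and 1.68, 11.7-fold lower (log2 -3.55 ± 0.236, adjusted p = 2.63e-06). POU4F1 was at 0.48, 0.31 and 0.49, 9.20-fold lower (log2 -3.20 ± 0.254, adjusted p = 6.75e-06). Only ISL1 of the 3 stayed above 1 FPKM in every D150-RO.

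ISL1 and POU4F2 were almost level with each other in the D70-ROs, with ISL1 to POU4F2 ratios of FPKM of 0.954, 0.846 and 0.998. In the D150-ROs the ratios were 4.12, 3.38 and 1.71, all above the D70-ROs, and replicate 3 was the nearest to them. The ratio was 3.09-fold higher on average (log2 difference 1.63), with p = 0.1 by an exact two-sided permutation test, which is the smallest p that 3 against 3 libraries allow. ISL1 also stands in the bipolar marker list, of which 8 genes passed the filter here, with 7 called higher and ISL1 the 1 called lower. The summed FPKM of that list, ISL1 included, was 36.23 to 47.35 in the D70-ROs and 247.71 to 296.4 in the D150-ROs. ISL1 itself was 14.01 to 25.97 of it in the D70-ROs and 1.68 to 2.39 in the D150-ROs. The part of the bipolar list in the ISL1 level was not tested.

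Axonal genes kept more or less of their D70 level by gene. GAP43 was at 27.05, 35.54 and 30.57 FPKM in the D150-ROs and kept 21.0% (log2 -2.25 ± 0.161, adjusted p = 3.95e-06). STMN2 was at 53.38, 60.79 and 43.81 and kept 10.9% (log2 -3.19 ± 0.156, adjusted p = 5.35e-07). SNCG was at 0.19, 0.35 and 0.78 and kept 3.32% (log2 -4.91 ± 0.367, adjusted p = 4.93e-06). The SNCG value rests on 15 counts over the 3 D150-ROs, so its level is less precise than the others: the log2 fold change was -5.60 without D150-RO replicate 3 and -3.73 with a length trend taken out. Its relative SNCB, beta-synuclein, rose 2.25-fold, from 4.89 to 8.35 FPKM to 14.72 to 17.62.

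Both neurofilament members, which had not risen from hiPSCs to D70-ROs, fell at this step. NEFL was at 0.85, 1.03 and 1.83 FPKM in the D150-ROs, 12.3-fold below the D70-ROs (adjusted p = 3.68e-06), and NEFM at 2.29, 2.46 and 2.05, 7.64-fold below (adjusted p = 1.34e-07). PRPH fell 48.9-fold, to 2.05 to 3.15 FPKM, and NEFH 2.30-fold. INA, in contrast, was at 99.45 to 115.6 FPKM in the D150-ROs, and its log2 fold change of -0.60 was not called at the 2-fold limit (adjusted p = 0.00104).

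ELAVL4 was at 0.63, 0.65 and 0.23 FPKM in the D150-ROs, 11.1-fold below the D70-ROs (log2 -3.48 ± 0.404, adjusted p = 6.43e-05). Its relatives ELAVL2 and ELAVL3 fell 2.86-fold and 2.52-fold. RBPMS was at 2.43, 3.1 and 3.16, 3.58-fold lower (log2 -1.84 ± 0.147, adjusted p = 7.01e-06), the smallest fall of the 10. RBPMS2 fell 5.97-fold.

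**Figure D3:**
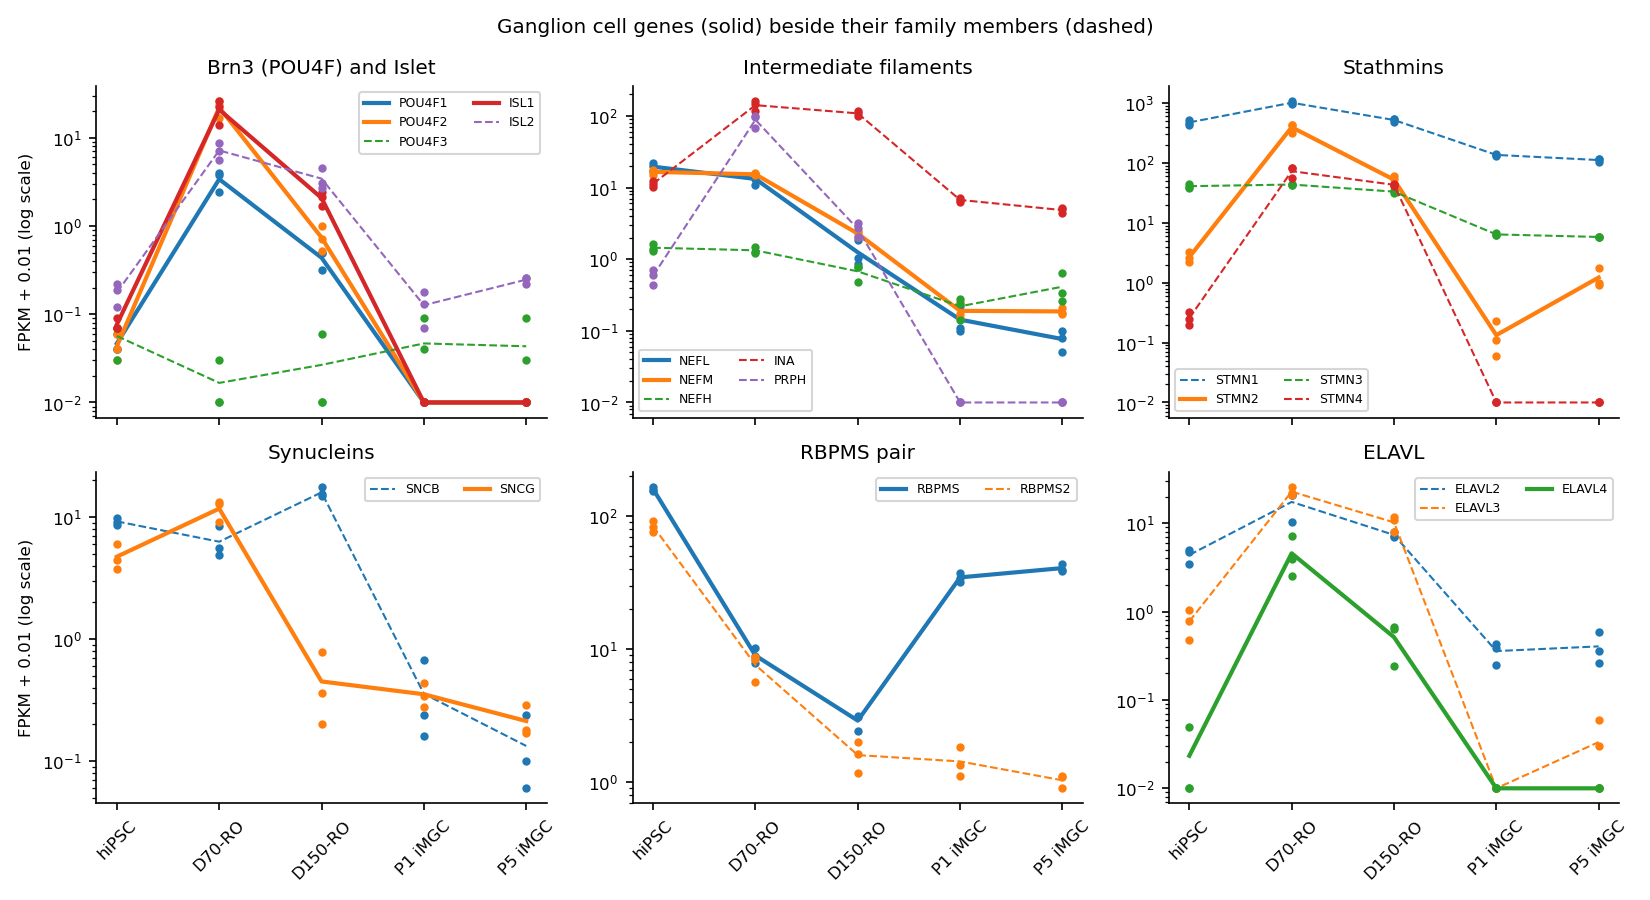
FPKM + 0.01 on a log axis over the 5 groups for the RGC genes (thick solid lines through group means) and family members that are not among the 10 (dashed), with a point for each of 3 libraries per group. INA and STMN3 miss the 2-fold limit from D70-RO to D150-RO (log2 fold changes of -0.60 and -0.71) and SNCB rises, while the RGC genes of these families fall, and RBPMS rises in the iMGCs while RBPMS2 does not.

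The wider lists fell less uniformly. Of 19 fate and subtype factors that passed, 10 were called lower and 2 higher, with a median log2 fold change of -1.03. Of 28 axon and projection neuron genes that passed, 16 were called lower and 3 higher, with a median of -1.13. By limma on log2(FPKM + 1) fewer were called lower, 5 of the factors and 10 of the axon genes, with 2 and 3 higher. The largest falls were those of PRPH, ATOH7 (25.9-fold, to 2.45 to 3.65 FPKM) and EBF3 (15.5-fold). The largest rises were those of the neuronal zinc-finger factor MYT1L (7.15-fold), the T-box factor EOMES, which marks some RGC subtypes (5.93-fold, to 1.48 to 1.96 FPKM), and the netrin receptor DCC (4.25-fold). TUBB3 fell 4.80-fold. THY1 fell 3.43-fold with groups that overlapped, at 9.87, 21.29 and 3.59 FPKM in the D70-ROs and 6.02, 2.85 and 3.75 in the D150-ROs, and without D70-RO replicate 2 its log2 fold change was -1.19 in place of -1.78. DCX fell 2.08-fold and NEFH 2.30-fold, and these calls rest on single libraries: without D150-RO replicate 3 the log2 fold changes were -0.92 and -0.99, and without D70-RO replicate 3 that of DCX was -0.87, all inside the 2-fold limit. Both calls were also lost with total counts.

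Other cell markers moved at the same step. All 10 photoreceptor markers were called higher, their summed FPKM going from 155.59 to 164.68 in the D70-ROs to 1388.21 to 1466.96. Of 10 retinal progenitor markers 8 were called lower, and their sum went from 1740.22 to 1913.57 down to 678.57 to 749.15. Of the 10 amacrine and horizontal markers 6 were called higher. Gene length moved with the comparison too: when genes were ranked by length and cut into 4 equal bins, the median log2 fold change was -0.67 in the bin of shortest genes and 0.55 in that of longest. With a length trend taken out all 10 RGC genes were still called lower, and the part of cell makeup in the falls was not tested.

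**Figure D4:**
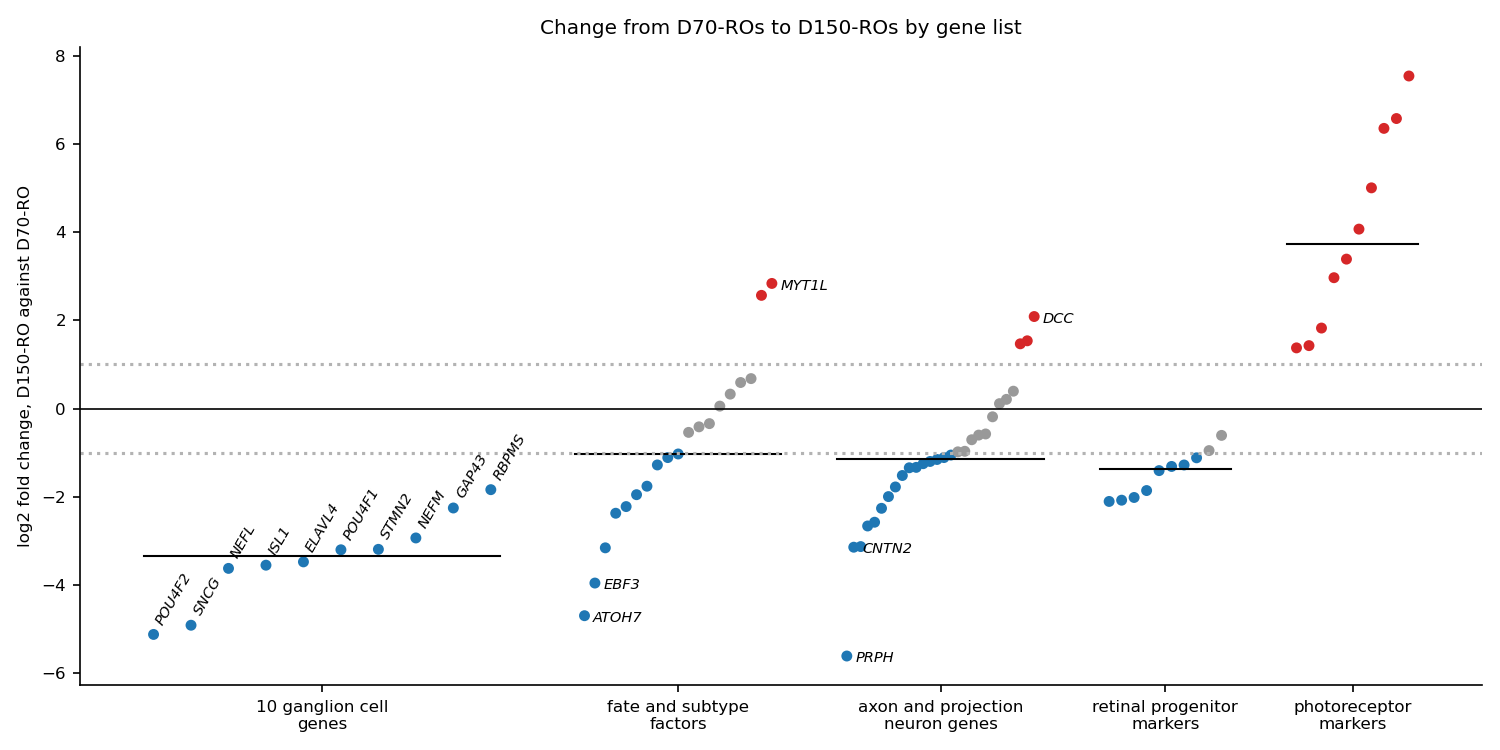
Log2 fold change from D70-ROs to D150-ROs for each gene that passed the filter, by list, with 1 point per gene, a bar at the list's median, red for called higher, blue for called lower and grey for not called. The 10 RGC genes all lie below the 2-fold line with a median of -3.34, the wider RGC lists spread on both sides of 0, and the photoreceptor markers all lie above it.

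The D70-RO libraries were not alike for these genes. Replicate 2, the shallowest library, was the lowest of the 3 D70-ROs for 9 of the 10 genes, while it was the lowest for 46.9% of the genes tested against hiPSCs. Its FPKM was 0.454 of the mean of replicates 1 and 3 for ELAVL4, 0.578 for ISL1, 0.668 for POU4F2 and 0.95 for NEFM, with a median of 0.685 over the 10. RBPMS was the exception, at 1.21. The Müller glia markers were highest in that library for 10 of 10 genes and the retinal progenitor markers for 6 of 10, against 35.3% of the genes tested. Forebrain and other brain neuron markers were highest there for 7 of 10 and pluripotent cell markers for 7 of 10. Only 1 and 2 genes of these 2 lists were at 1 FPKM or more in every D70-RO. The remaining marker lists had 3 to 5 of 10. Without replicate 2 the calls were still 7 higher and 1 lower against hiPSCs, and 10 lower from D70-ROs to D150-ROs.

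**Figure D5:**
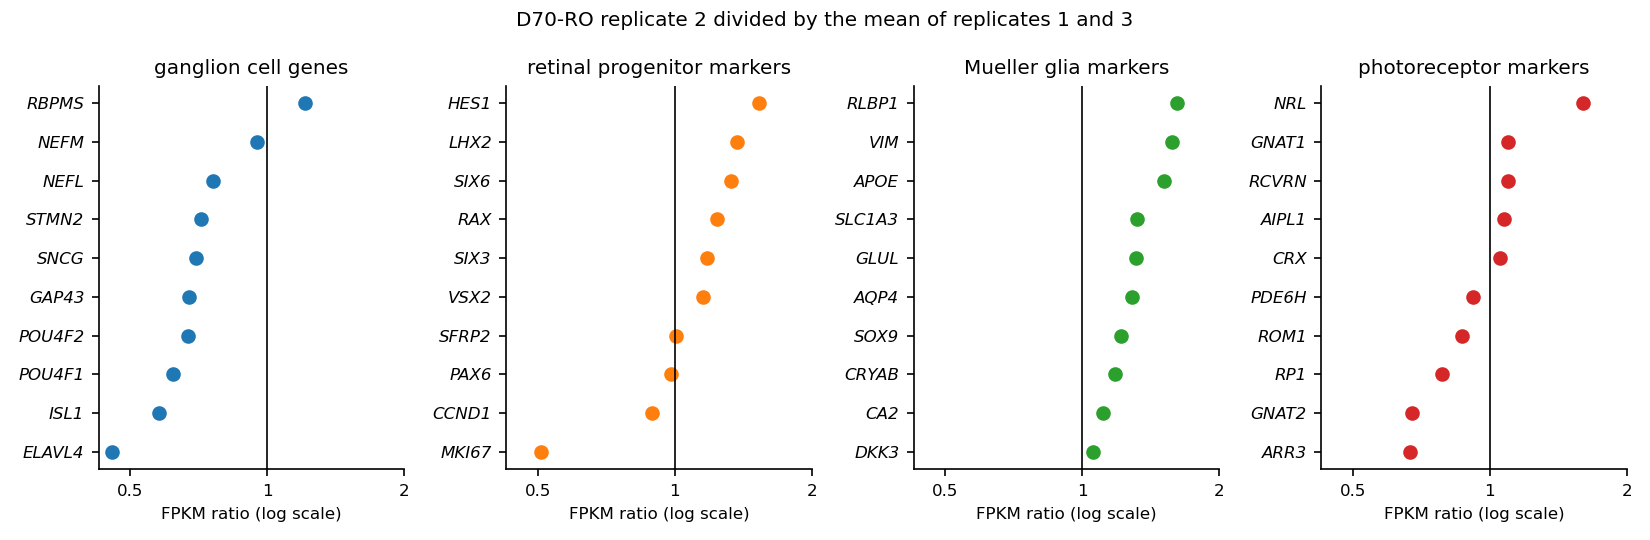
FPKM of D70-RO replicate 2 divided by the mean of D70-RO replicates 1 and 3, on a log axis, for the RGC genes and 3 marker lists of 10 genes each, with a line at 1. The RGC genes lie below 1 except RBPMS at 1.21, and all 10 Müller glia markers lie above 1.

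Set beside the hiPSCs, the D150-ROs still had more of some RGC genes and less of others. Without the filter on low values, 6 of the 10 genes were called higher and 4 lower, where 27.5% of 17605 genes were called higher and 26.9% lower. With the filter 7 genes were tested, and 3 were called higher and 4 lower, against 29.8% and 29.0% of 13344 genes. Scaling to total counts left these 3 and 4 and moved the share of all calls that were higher from 50.7% to 61.5%. ISL1 passed the filter only through the D150-ROs and SNCG only through the hiPSCs, so the filter largely fixed their direction. ISL1 was 22.7-fold, STMN2 15.8-fold and GAP43 2.87-fold above the hiPSCs. By libraries that did not overlap, 6 genes were higher and 4 lower, where 50.5% and 36.9% of the genes tested were. RBPMS was 59.6-fold, NEFL 21.0-fold, SNCG 13.3-fold and NEFM 10.4-fold below them. POU4F1, POU4F2 and ELAVL4 were called higher only without the filter, since they stayed under 1 FPKM in all 6 libraries. For ELAVL4, with 65 counts against 2, the 95% counting interval ran from 8.29-fold to 263-fold. In the wider lists the largest rises were those of STMN4 (130-fold), the vesicle protein SYT4 (52.5-fold) and EBF4 (44.1-fold), and the largest falls those of THY1 (87.6-fold), RBPMS2 (75.1-fold) and UCHL1 (3.85-fold). With a length trend taken out UCHL1 was at -0.99 on the log2 scale and was no longer called. DCX was 13.7-fold and ATOH7 5.07-fold above the hiPSCs, NEFH was 2.77-fold below, a call lost by limma on log2(FPKM + 1) (log2 -0.55), and TUBB3 was not called (log2 fold change -0.53). Of the fate and subtype factors 13 of 15 that passed were called higher, and of the axon genes 15 higher and 5 lower of 28. Only 3 of the 22 factors reached 1 FPKM in every hiPSC library, so the filter largely fixed the direction of most others. Without it 16 of the 22 were called higher and 1 lower.

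In the P1 iMGCs every RGC gene except RBPMS was under 1 FPKM, though POU4F1, POU4F2, SNCG and ELAVL4 already were in the D150-ROs. The P1 iMGC libraries and the D150-ROs come from separate tables, so any batch between these tables and the change of cells cannot be told apart. POU4F1, POU4F2, ISL1 and ELAVL4 had 0 counts in all 3 P1 libraries, out of 50139247 counts in all, and 0 in all 3 P5 libraries. With a floor of 3 counts over the group and TMM scaling, P1 iMGCs were at least 54.4-fold lower than D150-ROs for ISL1, at least 24.8-fold lower for POU4F2, at least 20.9-fold lower for POU4F1 and at least 14.4-fold lower for ELAVL4. These bounds cover counting error in the iMGCs only and take the D150 counts of 65 to 245 as they stand.

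The scaling weighs most in this comparison. TMM set all genes 0.64 higher in the P1 iMGCs, on the log2 scale, than total counts did, and FPKM follows the total counts. With total counts the median over all genes was -0.69, and 22.6% of the calls were higher in place of 45.4%. The RGC genes that passed the filter were still called, 4 lower and 1 higher.

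Without the filter 8 of the 10 genes were called lower and 1 higher, where 24.3% of 17164 genes were called lower and 18.1% higher. The filter left 5 of the genes, with 4 called lower and 1 higher, against 24.1% and 20.0% of 12896 genes. The 4 called lower, ISL1, NEFM, GAP43 and STMN2, were under 1 FPKM in every P1 library. They passed only through the D150-ROs, so the filter largely fixed their direction. All P1 iMGCs lay below all D150-ROs for 8 of the 10 genes and above for 1, and for 64.8% and 23.0% of the genes tested. STMN2 was at 0.22, 0.05 and 0.1 FPKM in the P1 iMGCs, 249-fold below the D150-ROs (log2 -7.96, adjusted p = 8.31e-15). That fold rests on 14 counts, and the log2 value was -8.60 without P1 replicate 1 and -8.59 with total counts. GAP43 was at 0.55, 0.61 and 0.54, 35.0-fold below (adjusted p = 7.51e-14), and NEFM at 0.16, 0.24 and 0.14, 7.88-fold below (adjusted p = 8.36e-09). With total counts their log2 fold changes were -5.77 and -3.62. NEFL was at 0.21, 0.1 and 0.09 and was called without the filter (log2 -2.92, adjusted p = 5.01e-07). SNCG was the gene not called: at 0.27, 0.43 and 0.33 it lay within the D150-RO range of 0.19 to 0.78, on 12 counts against 15 (log2 0.27, adjusted p = 0.756).

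RBPMS went the other way. It was at 37.5, 32.25 and 34.47 FPKM in the P1 iMGCs against 2.43, 3.1 and 3.16 in the D150-ROs, 15.2-fold higher (log2 3.93 ± 0.0899, adjusted p = 1.39e-15; log2 3.28 with total counts), and at 43.89, 38.83 and 39.73 in the P5 iMGCs. The iMGC level lay between that of the D70-ROs and that of the hiPSCs, with no overlap. RBPMS2 was not called (log2 0.54, 1.1 to 1.83 FPKM in P1). Markers of smooth-muscle type cells moved with RBPMS at this step only: 8 of the 9 that passed were called higher. The summed FPKM of the 10 went from 36.58 to 39.02 in the D150-ROs to 3416.7 to 3735.31 in the P1 iMGCs, led by TAGLN at 1848.17 to 2006.57. In P1 iMGCs against hiPSCs, 9 of the 9 that passed were called higher, while RBPMS was called lower (3.92-fold). From P1 to P5, 7 of the 10 markers were lower in every library and 1 higher, while RBPMS was 1.23-fold higher. MYH11, the smooth-muscle myosin of that list, was at 0 to 0.02 FPKM in the P1 iMGCs. The list's part in the RBPMS level was not tested.

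THY1 and UCHL1, which are used as RGC markers too, had the same direction as RBPMS at this step. THY1 was 20.1-fold higher in the P1 iMGCs (46.09 to 57.02 FPKM), the ubiquitin hydrolase UCHL1 4.98-fold higher (492.71 to 504.25) and the sodium channel SCN2A 2.46-fold higher (3.68 to 4.26). With total counts THY1 and UCHL1 were still called (log2 3.69 and 1.67), while SCN2A was not (log2 0.65, and 0.40 and 0.51 by limma). The other axon genes mostly fell, with 19 of the 27 that passed called lower. Of the 15 fate and subtype factors that passed, 14 were called lower and 0 higher by edgeR, DESeq2 and limma alike. At an unadjusted p under 0.05 edgeR had 1 higher. Only 3 of the 22 factors and 15 of the 30 axon genes reached 1 FPKM in every P1 library. Most others that passed did so only through the D150-ROs, so the filter largely fixed their direction. Without it 15 factors were called lower and 2 higher, and 22 axon genes lower and 3 higher. Over all 17164 genes 24.3% were called lower and 18.1% higher. SYT4, DCX and STMN4 were listed at 0 in every P1 library, from 9.57 to 45.23 FPKM in the D150-ROs. ATOH7 was at 0.08, 0 and 0 FPKM in P1, with 2 counts against 224 in the D150-ROs (adjusted p = 4.56e-08), and TUBB3 was at 43.94 to 50.96 FPKM against 132.36 to 138.27. TUBB3 missed the 2-fold limit with TMM (log2 -0.77, adjusted p = 2.32e-09) and was called lower with total counts (log2 -1.42) and by limma (log2 -1.50 and -1.52).

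Between P5 and P1 iMGCs only RBPMS passed the filter, and it was not called: it was 1.23-fold higher in P5 (log2 0.30 ± 0.0521, adjusted p = 8.96e-05), with no overlap of the groups. So 0 of the 10 genes were called by edgeR with the filter, and 0 by DESeq2 and limma, with 1 at an unadjusted p under 0.05, where 1.94% of 11366 genes were called higher and 0.977% lower. Without the filter 1 gene was called, STMN2, where 2.53% of 16194 genes were called higher and 1.76% lower. RBPMS and STMN2 were the 2 genes with higher values in every P5 library and 0 had lower ones, against 14.0% and 25.5% of the genes tested. It was at 0.22, 0.05 and 0.1 FPKM in P1 and at 0.97, 0.89 and 1.78 in P5, with 14 counts against 129 (log2 3.25 ± 0.398, adjusted p = 1.14e-12). All 3 P5 libraries were above all 3 P1 libraries, and all 6 were below the lowest hiPSC at 2.19. NEFL, NEFM, GAP43 and SNCG had 7 to 48 counts per group and overlapped between passages. THY1 (log2 0.11, adjusted p = 0.155) and TUBB3 (log2 -0.35, adjusted p = 1.25e-05) were not called. No gene of the wider lists was called in either direction by edgeR, DESeq2 or limma, with 13 of 18 at an unadjusted p under 0.05.

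The P1 iMGCs also lay below the hiPSCs for most of the RGC genes. These groups too were deposited separately, so any batch between them and the change of cells cannot be told apart. TMM set all genes 0.28 higher in the P1 iMGCs, on the log2 scale, than total counts did. With total counts 38.0% of all calls were higher in place of 46.8%. NEFL, NEFM, GAP43, STMN2 and SNCG were under 1 FPKM in every P1 library and passed the filter only through the hiPSCs, where they are high, so the filter largely fixed their direction, and RBPMS alone passed in both groups. Of the 6 genes that passed the filter, 6 were called lower, and 8 of 10 without the filter, where 29.7% of 12666 genes and 29.2% of 17355 genes were called lower, and 26.1% and 23.2% higher. For 9 of the 10 every P1 library was below every hiPSC library, as for 52.6% of the genes tested, and 33.4% lay wholly above. NEFL was 160-fold lower, NEFM 82.3-fold, STMN2 15.8-fold, GAP43 12.2-fold, SNCG 11.1-fold and RBPMS 3.92-fold. The log2 value of STMN2 was -4.62 without P1 replicate 1, against -3.98 with it. POU4F1, POU4F2, ISL1 and ELAVL4 had only 10, 6, 10 and 2 counts in the hiPSCs and 0 in P1, too few for a fold. Of 21 axon genes that passed, 14 were called lower and 3 higher, and of 3 fate factors 2 lower and 1 higher. SCN2A (30.1-fold), the microtubule protein MAP1B (9.60-fold) and KLF7 (5.02-fold) had the largest rises, and NSG1 (201-fold, on 7 counts in P1), the adhesion molecule CNTN2 (3 counts in P1 against 586 in hiPSCs) and RBPMS2 (51.6-fold) the largest falls. THY1 was 4.37-fold, NEFH 5.59-fold and TUBB3 2.48-fold lower, and TUBB3 lost its call with a length trend taken out (log2 -0.87).

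Across the 15 libraries the 10 genes fell into different patterns. Pearson's r of log2(FPKM + 1) is given as a description, since libraries of 1 group share their state and 13915 genes were compared. POU4F1 was closest to EBF3 (r = 0.998) and POU4F2 (r = 0.994), followed by PRPH, LIM2 and ISL1. POU4F2 was closest to POU4F1 and EBF3, then C8orf76, PTH2 and GALP, and ISL1 to FAM163A, EBF3, TBX5, PTF1A and CABP7. ELAVL4 had KLHL1, CRYBA1, EBF3, POU4F1 and OLIG2 as neighbours, so EBF3 was among the 5 nearest genes of 4 members.

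The axonal and filament genes had other neighbours. GAP43 was nearest to SOX11 (r = 0.995), LDLRAD3, GFY, SPOCK2 and CNTFR, and STMN2 had MAPK10 (r = 0.994), SIX6, ATP6V1G1 and CACNG4 among its 5 nearest genes. NEFM was nearest to DDIT4 (r = 0.997), TYMS, RALY, HNRNPC and CIB2, and NEFL to RCC1, CIB2, FBL, IFITM1 and LSM2. SNCG was nearest to COX7A2, FAU, FGF19, IGFBPL1 and APH1A. RBPMS was nearest to UST (r = 0.99), SFRP1, TNFRSF21, TPM3 and UCK2, and its r with the other members ran from -0.70 with STMN2 to 0.23 with NEFL.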

How the data were processed

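Poly(A) RNA-seq of 15 libraries was used. For the authors' tables, HISAT2 aligned the reads, StringTie assembled transcripts and RSEM gave gene values; versions, build and annotation are not given in the sources used here. They deposited expected counts, which are not normalized, and FPKM, scaled for transcript length and mapped reads. The 6 iMGC columns of a further table name no passage and were not used. A company and a correction between batches are named without saying which libraries they touch. The members and lists were chosen with earlier results of these data known.

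Expected counts were rounded and tested with edgeR 4.0.16 (quasi-likelihood, TMM) in R 4.3.3, 2 groups at a time, keeping genes that reached an FPKM of 1 in 3 or more libraries compared. Calls needed a Benjamini-Hochberg adjusted p under 0.05 and at least 2-fold. The ISL1 to POU4F2 ratio used FPKM + 0.01 and SciPy 1.17.1. Symbols and positions came from GENCODE 29. Scripts were tested on simulated data. Genes named from the wider lists were the 3 largest rises and falls among calls, plus ATOH7, THY1, TUBB3, DCX and NEFH where tested. Relatives of the members were named to set each family side by side, and TAGLN, MYH11 and VIM were chosen after their values were seen. A few genes of these lists are not reported here. Alternatives were other scaling, filters, DESeq2 1.42.0, limma 3.58.1 on log2 FPKM with pseudocounts of 1 and 0.1, all libraries in 1 fit, a test against 2-fold, the replicate block, a length correction, each library left out and, added after seeing the data, total counts in place of TMM.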

Additional observations from a re-analysis of the deposited data

How the results depend on the processing

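Over all alternatives, 662 of 663 values of single RGC genes that passed the filter kept their direction and call, and the exception was SNCG in D70-ROs against hiPSCs under the test against a 2-fold change. What changed the counts of RGC genes was the filter. Scaling to total counts, which was chosen after seeing the data, changed none of them. Without the FPKM filter, or with a filter of at least 10 counts in 3 libraries, 6 genes were called higher in D150-ROs than in hiPSCs. In the same settings 8 were called lower in P1 iMGCs than in D150-ROs, and 1 higher in P5 than in P1 iMGCs. In the wider lists, the genes called lower from D70-ROs to D150-ROs numbered 15 by limma on log2(FPKM + 1) and 17 in the test against 2-fold, and those called higher 3 with the length trend removed. Both other filters gave 5 wider genes higher in P1 iMGCs than in D150-ROs, 2 higher and 1 lower in P5 than in P1 iMGCs, and 8 higher in P1 iMGCs than in hiPSCs, with 33 lower without a filter and 29 with the count filter. THY1 between passages turned from a log2 fold change of 0.11 to -0.054 and -0.055 by limma with pseudocounts of 1 and 0.1, and was called in neither. The calls of THY1, DCX and NEFH from D70-ROs to D150-ROs were lost by limma and in the test against 2-fold.

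Leaving out each library in turn, with the tested genes held fixed, kept every count of RGC genes, and the log2 difference of the ISL1 to POU4F2 ratio ran from 1.37 to 2.00. Equal replicate numbers gave no clear pairing: deviations from group means correlated between -0.08 and 0.35, and no comparison had every pair above 0.1. In P1 iMGCs against hiPSCs the library of the same number was the best match for each replicate, at r of 0.033, 0.007 and 0.011. In no other comparison did this hold for every replicate, and 3 libraries per group cannot exclude a pairing. With the replicate number as a block, the counts of RGC genes were still 7 higher and 1 lower, then 10 lower, over the first 2 steps, and no other count of members or wider genes changed. Depth limits the iMGC values most: 0 counts in a group allows up to 3.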
